A study of Mus musculus with 12 samples.

Results

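The plasma cell identity genes described here are 10 genes chosen by name from the 27179 genes of the count table. They comprise 4 regulators (Prdm1, Xbp1, Irf4 and Ell2), the surface proteoglycan gene Sdc1, and 5 genes of secretion (Jchain, Mzb1, Derl3, Fkbp11 and Slpi). All 10 were found by their Entrez gene numbers, and all 10 were among the 13592 genes that had enough reads to be tested. Their RNA was counted in mature B cells that were sorted from mouse marrow by high B220, surface IgM and a lack of CD93, in 4 groups of 3 libraries. Old wild-type mice were 98, 99 and 100 weeks of age, and young wild-type mice were 9, 10 and 11 weeks. Apoptosis-resistant mice had the genotype Bak-/- BaxD/D and apoptosis-sensitive mice Bak-/- Baxfl/fl, and all 6 of these mice were 10 weeks old. By genotype both of these groups therefore lacked Bak1, which the wild-type groups carried, and every mouse had the C57BL/6 background. The enzyme that deleted Bax, the cells it acted in and the sex of the mice are not stated in the labels.

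A plasma cell is the end stage of a B cell that has turned to antibody secretion. IRF4 and Blimp-1, the protein of Prdm1, start the change and silence B cell genes such as Pax5 and Bcl6, and XBP1 enlarges the endoplasmic reticulum so that large amounts of immunoglobulin can be folded and exported. Long-lived plasma cells reside in the bone marrow, but they mostly carry little B220 and little surface IgM, so a gate for high B220 and IgM keeps mainly B cells that are not plasma cells. The members are also transcribed at lower levels in B cells that have been activated without becoming plasma cells.

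Total counts per library ran from 13474162 to 23539764. The B cell marker Cd79a, a chain of the B cell receptor complex, was at 809.8 to 1586 CPM (counts scaled to library size) in old, 1155 to 1808 in young, 1692 to 1894 in apoptosis-resistant and 1521 to 2031 in apoptosis-sensitive libraries. Ms4a1, which encodes CD20, was at 636 to 1540.1 CPM in old, 799 to 1756 in young, 1351 to 1681 in apoptosis-resistant and 1600.3 to 1966 in apoptosis-sensitive libraries. Bax, the gene deleted in the apoptosis-resistant group, had 72, 106 and 175 reads there, against 988, 957 and 2141 reads in the apoptosis-sensitive group. Bak1 had 156, 238 and 146 reads in apoptosis-resistant and 171, 212 and 132 in apoptosis-sensitive libraries, against 386, 953 and 726 in young libraries. Its log2 fold change against young cells was -1.91 ± 0.34 in apoptosis-resistant and -2.09 ± 0.34 in apoptosis-sensitive cells (edgeR adjusted p = 0.0593 and 0.135). Same-numbered libraries shared a collection date within the wild-type groups, and likewise within the Bak1-deficient groups, while no date was shared between these pairs of groups. The date of old replicate 1 and young replicate 1 was 24 March with the year given as 2006, against 2016 for the other 10 libraries. Where the markers of another cell type move with a gene in bulk RNA, more cells of a type and more RNA per cell cannot be told apart.

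In the fit by group of all 12 libraries, none of the 10 genes passed the threshold in any comparison. The threshold was an adjusted p under 0.05 in edgeR's quasi-likelihood test. With age, 0 of 10 passed, while 2.01% of all genes tested did. Between apoptosis-resistant and apoptosis-sensitive cells 0 of 10 passed, against 0.0441% of all genes. The share of all genes was 0.162% for apoptosis-resistant against young cells, 0% for apoptosis-sensitive against young cells and 0.25% for the difference between the age effect and the Bax effect, and 0 of 10 members passed in each of these. At an unadjusted p under 0.05, Prdm1 and Derl3 passed with age, where 11.6% of all genes did, and Prdm1 passed for apoptosis-resistant against young cells, where 6.13% did. No member passed at that level in the other 3 comparisons. DESeq2 called 1 member with age, Prdm1, and 0 in the other comparisons. With the collection date as a block, edgeR called 1 member with age, Ell2 (adjusted p = 0.0487), and 14.9% of all genes.

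**Figure D1:**
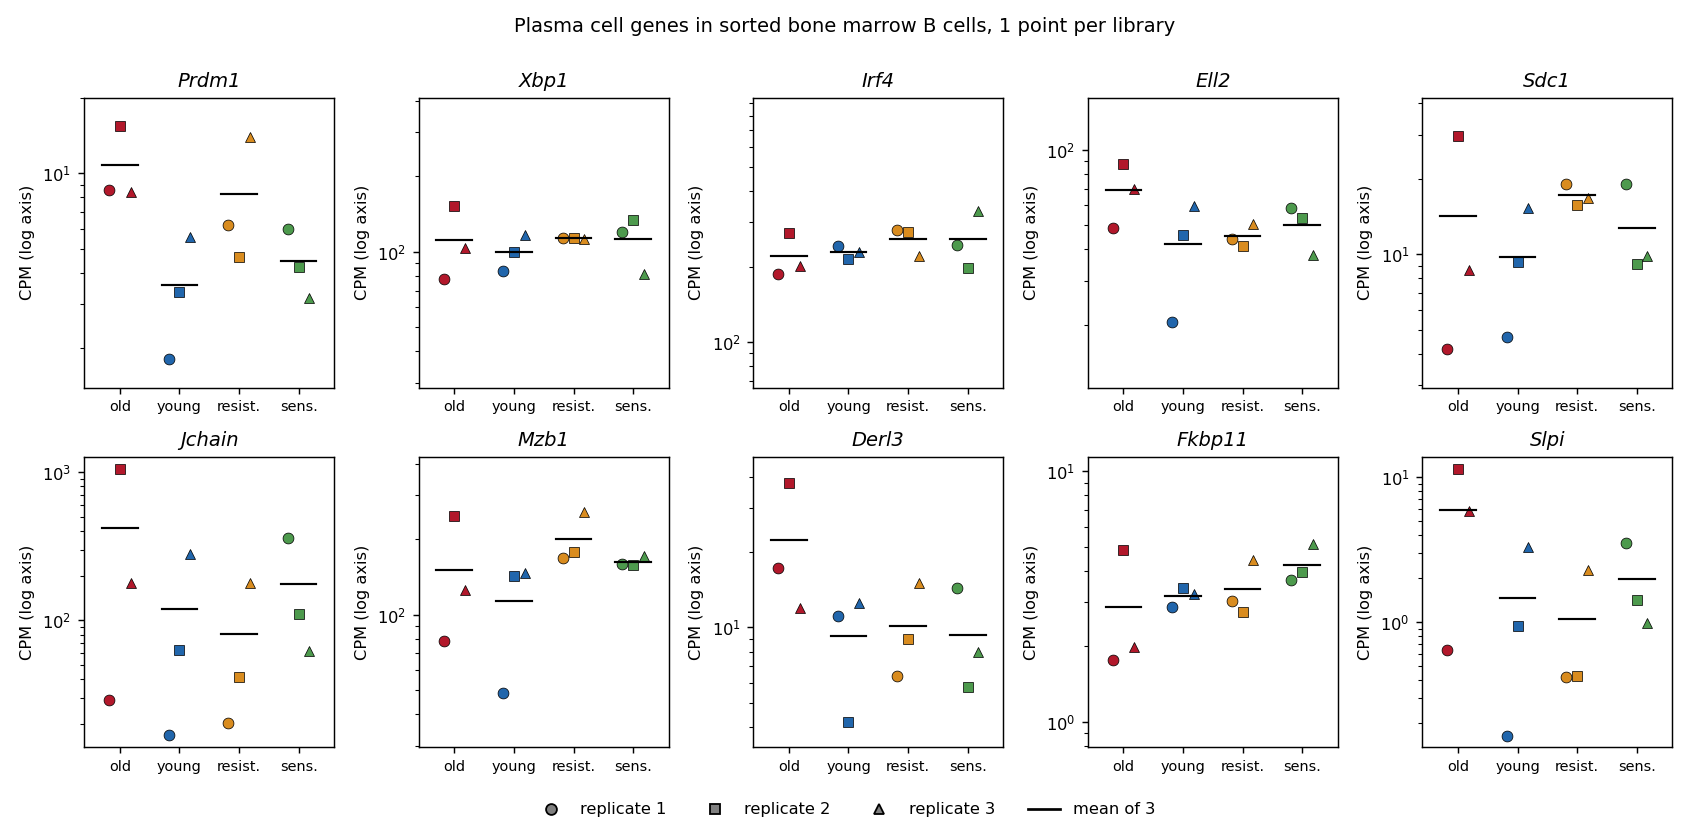
Level of each of the 10 genes in CPM (TMM-scaled counts, log axis, each panel with its own range) in old and young wild-type and in apoptosis-resistant (resist.) and apoptosis-sensitive (sens.) cells; each point is 1 library, its shape gives the replicate number and the bar is the mean of 3. Prdm1 is the gene whose 3 old libraries, at 8.39 to 15.4 CPM, all lie above the 3 young libraries, at 1.81 to 5.54 CPM, while Jchain and Slpi spread widely within every group.

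Among the regulators, Prdm1 encodes Blimp-1, the repressor that ends the B cell programme. It had 8.56, 15.4 and 8.39 CPM in old cells, against 1.81, 3.34 and 5.54 CPM in young cells (175, 301 and 156 reads against 22, 78 and 84). Every old library was above every young library, and Prdm1 was the 1 member of 10 for which this was so, where 9.16% of all genes tested had all 3 old above all 3 young. No member had all 3 old below all 3 young, as 6.96% of genes had. The fitted log2 fold change was 1.59 ± 0.50 (SE), with a 95% interval for the fold of 1.41 to 6.42. The adjusted p was 0.166 in edgeR's quasi-likelihood test, 0.0319 in DESeq2, where 4.82% of all genes were called, and 0.0597 in edgeR with the collection date as a block. Across edgeR fits that each left out 1 of the 12 libraries, it ran from 0.108 to 0.466, and the log2 fold change from 1.26 to 2.03. By collection date, old exceeded young by 2.18, 2.17 and 0.59 on the log2 scale.

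Prdm1 in apoptosis-resistant cells was 6.21, 4.61 and 14.0 CPM, against 5.98, 4.23 and 3.18 CPM in apoptosis-sensitive cells. The groups overlapped, and apoptosis-resistant replicate 3 stood above the other 5 libraries. The log2 fold change was 0.90 ± 0.49, with an interval of -0.18 to 1.97 (edgeR adjusted p = 0.9998), and within the 3 dates it was 0.05, 0.12 and 2.10. Without that library it was 0.29. Ordered by mean, Prdm1 was at 10.8 ± 4.0 CPM in old, 8.27 ± 5.03 in apoptosis-resistant, 4.46 ± 1.41 in apoptosis-sensitive and 3.56 ± 1.88 in young cells (SD, n = 3 each), and each neighbouring pair of groups in this order overlapped.

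Xbp1 encodes the transcription factor of the secretory and unfolded protein response. Its RNA is made active outside the nucleus, when the kinase and nuclease IRE1 removes a short stretch and so shifts the reading frame. The stretch is shown because a count per gene does not separate the cut from the uncut RNA, so the values here are of both forms together. It lies in exon 4 of 5 (GRCm38 chr11:5524282-5524307, plus strand), and the 26 removed bases are in capitals between 10 flanking bases on each side.
Xbp1: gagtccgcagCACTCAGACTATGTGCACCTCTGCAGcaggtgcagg
Xbp1 had 77.9, 152 and 104 CPM in old cells and 83.6, 99.7 and 117 CPM in young cells. It had 114, 114 and 112.8 CPM in apoptosis-resistant cells and 120.5, 134 and 81.8 CPM in apoptosis-sensitive cells. The ranges of the 4 groups overlapped. Its log2 fold change was 0.15 ± 0.25 with age, with an interval for the fold of 0.761 to 1.63, and 0.02 ± 0.25 between apoptosis-resistant and apoptosis-sensitive cells, with an interval of 0.694 to 1.48.

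Irf4 encodes a transcription factor that drives activation at moderate dose and plasma cell fate at high dose. It was the most even member, with 187, 273 and 201 CPM in old, 242, 215 and 228 in young, 279, 275 and 220.3 in apoptosis-resistant and 243, 198 and 332 in apoptosis-sensitive cells. The fold was 0.964 with age (95% interval 0.690 to 1.35) and 1.0 between apoptosis-resistant and apoptosis-sensitive cells (0.717 to 1.40). Neither interval holds a change of 1.5 times in either direction.

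Ell2 encodes an RNA polymerase elongation factor that favours the secreted form of the immunoglobulin heavy chain RNA. It had 48.8, 87.9 and 69.7 CPM in old cells, against 20.6, 45.6 and 59.8 CPM in young cells. The groups overlapped, and the old library was the higher of each date pair, by 1.24, 0.95 and 0.22 on the log2 scale. Its log2 fold change was 0.71 ± 0.34 (edgeR adjusted p = 0.461). With the collection date as a block it was 0.79, with an adjusted p of 0.0487 in edgeR, and in that fit 14.9% of all genes were called. Ell2 had 44.0, 41.3 and 50.4 CPM in apoptosis-resistant cells and 58.5, 53.2 and 38.0 CPM in apoptosis-sensitive cells, with a log2 fold change of -0.14 ± 0.34 between them.

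Sdc1 encodes syndecan-1, or CD138, the surface proteoglycan by which plasma cells are usually sorted. It had 4.16, 29.7 and 8.65 CPM in old cells and 4.68, 9.29 and 15.3 CPM in young cells. Old replicate 2 was the highest of all 12 libraries and old replicate 1 the lowest, so the old group spanned the young one. The log2 fold change with age was 0.54 ± 0.62, and without old replicate 2 it was -0.60. Sdc1 had 19.0, 15.7 and 16.8 CPM in apoptosis-resistant cells and 19.1, 9.11 and 9.87 CPM in apoptosis-sensitive cells (log2 fold change 0.43 ± 0.61). The apoptosis-resistant libraries were all above the young ones, by a log2 fold change of 0.81 ± 0.62 (edgeR adjusted p = 0.811), where 6.64% of all genes tested had no overlap in that direction. These 2 groups shared no collection date and differ in both Bak1 and Bax, so date and genotype cannot be told apart there.

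Among the secretory genes, Jchain encodes the joining chain that links IgM and IgA into polymers. It had 29.0, 1049.9 and 179 CPM in old cells, against 16.7, 62.7 and 279.8 CPM in young cells. Apoptosis-resistant cells had 20.3, 41.3 and 179 CPM, against 358, 111 and 62.0 CPM in apoptosis-sensitive cells. The spread within groups was wide, since the highest library exceeded the lowest 36.2 times in old, 16.8 times in young, 8.83 times in apoptosis-resistant and 5.77 times in apoptosis-sensitive cells. The log2 fold change with age was 1.81 ± 1.27, with an interval of -0.98 to 4.59 (edgeR adjusted p = 0.738), and without old replicate 2 it was -0.20. Between apoptosis-resistant and apoptosis-sensitive cells it was -1.14 ± 1.25, with an interval of -3.88 to 1.60, and by date it was -4.13, -1.43 and 1.53. As a fold, the interval ran from 0.509 to 24.1 with age and from 0.068 to 3.03 between apoptosis-resistant and apoptosis-sensitive cells.

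Slpi encodes a secreted inhibitor of serine proteases. Its reads were few, with 13, 223 and 108 in old and 2, 22 and 50 in young libraries, and 6, 7 and 48 in apoptosis-resistant and 62, 24 and 21 in apoptosis-sensitive libraries. In CPM these were 0.636, 11.4 and 5.81 in old, against 0.164, 0.942 and 3.30 in young cells. Apoptosis-resistant cells had 0.414, 0.424 and 2.29 CPM, against 3.50, 1.41 and 0.982 CPM in apoptosis-sensitive cells. The young library with 2 reads lay under the level of 3 reads, which was 0.246 CPM in it. Its log2 fold change was 2.01 ± 1.07 with age (edgeR adjusted p = 0.559), and the old library was the higher in all 3 date pairs, by 1.44, 3.45 and 0.80. It was 1.12 without old replicate 2 and 3.29 without young replicate 3. Between apoptosis-resistant and apoptosis-sensitive cells it was -0.87 ± 1.08. The gene for the microRNA Mir7678 overlaps Slpi and a small nucleolar RNA gene overlaps Ell2, and the strand setting of the counts was not given, so reads of such partners could not be separated.

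Derl3 encodes a channel component that moves misfolded proteins out of the endoplasmic reticulum for degradation. It had 17.3, 37.8 and 12.0 CPM in old cells, against 11.1, 4.20 and 12.5 CPM in young cells. The groups overlapped, because old replicate 3 was below young replicate 3. With age Derl3 had a log2 fold change of 1.28 ± 0.53, with an interval of 0.12 to 2.45 (unadjusted p = 0.034 and adjusted p = 0.36 in edgeR), and without old replicate 2 it was 0.69. Derl3 was at 10.2 ± 4.46 CPM in apoptosis-resistant and 9.35 ± 4.45 CPM in apoptosis-sensitive cells (SD, n = 3 each), with a log2 fold change of 0.13 ± 0.53.

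Mzb1 encodes an endoplasmic reticulum protein that helps IgM assembly and secretion in marginal zone, B-1 and plasma cells. It had 78.5, 247 and 125 CPM in old cells and 48.7, 143 and 147 CPM in young cells, which overlapped (log2 fold change 0.41 ± 0.43, and -0.13 without old replicate 2). It had 168, 177.6 and 258 CPM in apoptosis-resistant cells and 159, 158 and 171 CPM in apoptosis-sensitive cells, with a log2 fold change of 0.31 ± 0.43. Apoptosis-resistant replicate 3 was the highest of the 12 libraries for this member alone, as it was for 6.04% of all genes. All 6 Bak1-deficient libraries were above the 3 young libraries. Of all genes tested, 6.64% had all 3 apoptosis-resistant and 4.57% all 3 apoptosis-sensitive libraries above the young ones. The share with both is not given here. The log2 fold change was 0.84 ± 0.44 for apoptosis-resistant and 0.53 ± 0.44 for apoptosis-sensitive against young cells (edgeR adjusted p = 0.811 and 0.824), and both comparisons use the same young controls. Without the 24 March libraries, which include the young library at 48.7 CPM, these were 0.50 and 0.19. Neither Bak1-deficient group shared a collection date with the young cells. For apoptosis-sensitive against young cells, Mzb1 and Fkbp11 had all 3 libraries above the young ones, as had 4.57% of all genes tested. No member was lower than young without overlap in either Bak1-deficient group, where 6.22% of all genes were for apoptosis-resistant and 4.25% for apoptosis-sensitive cells.

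Fkbp11 encodes a peptidyl-prolyl isomerase of the secretory pathway. It had 1.76, 4.86 and 1.99 CPM in old cells and 2.88, 3.43 and 3.23 CPM in young cells, so old replicate 2 was above and the other old libraries below all 3 young libraries. Its log2 fold change was -0.15 ± 0.40 with age. It had 3.03, 2.73 and 4.40 CPM in apoptosis-resistant cells and 3.67, 3.94 and 5.10 CPM in apoptosis-sensitive cells, whose 3 libraries were all above the young ones (log2 fold change 0.41 ± 0.39, edgeR adjusted p = 0.825). The apoptosis-resistant library was the lower in each date pair, by log2 differences of -0.26, -0.51 and -0.21, where 23.2% of all genes were lower in all 3 pairs. The log2 fold change was -0.32 ± 0.39 (edgeR adjusted p = 0.9998).

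**Figure D2:**
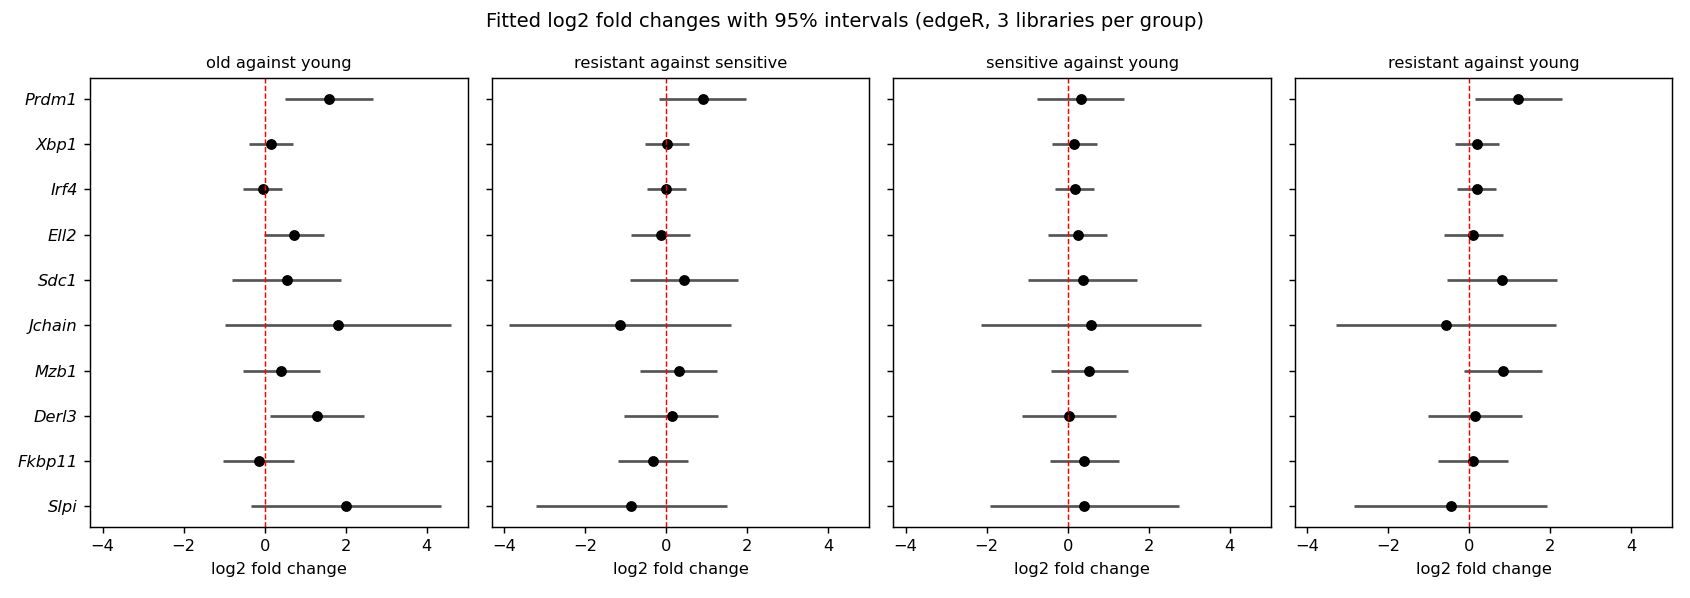
Fitted log2 fold change of each gene (point) with its 95% interval (line) from edgeR in 4 comparisons of 3 libraries each; the dashed line marks no change, and positive values mean higher in the group named first. With age, the intervals of Prdm1 (0.50 to 2.68) and Derl3 (0.12 to 2.45) lie above 0, the intervals of Irf4 and Xbp1 are narrow around 0, and those of Jchain and Slpi are the widest in each panel.

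Read over the whole group, the 10 genes had a median log2 fold change of 0.62 with age, against -0.03 over all genes tested, and 8 of 10 were above 0, as were 45.7% of all genes. The median was 1.28 over the 5 secretory genes and 0.43 over the 4 regulators. These values rested on old replicate 2. Without it the median was -0.13 over the 10 genes, -0.13 over the secretory genes and 0.19 over the regulators. Of the 10 genes, 4 were then above 0, as were 46.5% of all genes. Without young replicate 1 the median over the 10 genes was 0.31, without old replicate 1 it was 0.94 and without young replicate 3 it was 1.02. The collection dates differed in this. On 24 March, 6 of 10 members were higher in the old library, on 11 April all 10 were, and on 12 April 3 of 10 were, with medians of 0.66, 1.31 and -0.18 on the log2 scale. The shares of all genes higher in the old library on these dates were 45%, 48.8% and 50.9%. Prdm1, Ell2 and Slpi were higher in all 3 pairs, where 22.8% of all genes were, and 0 members were lower in all 3, where 25.2% were.

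For Bax deletion the median over the 10 genes was 0.01, against -0.02 over all genes, with 6 of 10 above 0, as were 47.3% of all genes. Against the young controls that both share, 8 of 10 members were above 0 in apoptosis-resistant cells (median 0.16) and 10 of 10 in apoptosis-sensitive cells (median 0.35), where 47.5% and 48.7% of all genes were. Without young replicate 1 these were 7 of 10 (0.16) and 8 of 10 (0.07), where 53.8% and 58% of all genes were. Without young replicate 3 they were 10 of 10 (0.66) and 10 of 10 (0.68), where 52.2% and 52.4% of all genes were. Without apoptosis-resistant replicate 3, the members above 0 in apoptosis-resistant cells were 6 of 10 (0.12), against 48.4% of all genes. Without apoptosis-sensitive replicate 1 it was 6 of 10 in apoptosis-sensitive cells (0.09), against 48.5% of all genes. Of the members, 3, 5 and 8 of 10 were higher in the apoptosis-resistant library of the 3 date pairs, where 47.9%, 50.1% and 49.3% of all genes were, and the pair medians were -0.16, -0.06 and 0.68. Prdm1 and Mzb1 were higher in all 3 pairs, where 22% of all genes were. For 0 of 10 members did the 3 apoptosis-resistant libraries all lie above or all below the 3 apoptosis-sensitive ones, which 6.32% and 8.31% of all genes did. The difference between the age effect and the Bax effect was 2.95 ± 1.79 for Jchain, 2.87 ± 1.52 for Slpi, 1.16 ± 0.75 for Derl3, 0.85 ± 0.48 for Ell2 and 0.70 ± 0.69 for Prdm1 on the log2 scale. Each of these intervals included 0, and the lowest adjusted p of a member in edgeR was 0.823, for Slpi.

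Old replicate 2 was the highest of the 12 libraries for 7 of the 10 genes (Prdm1, Xbp1, Ell2, Sdc1, Jchain, Derl3 and Slpi), whereas 9.79% of all genes tested had their highest level there. Young replicate 1 was the lowest for 5 of the 10 (Prdm1, Ell2, Jchain, Mzb1 and Slpi), where 19.6% of all genes were lowest. Without old replicate 2, the log2 fold changes with age of Xbp1, Sdc1, Jchain and Mzb1 were at or below -0.13, and those of Prdm1, Ell2, Slpi and Derl3 stayed above 0.

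Libraries of the same group varied far more in some members than in others. The standard deviation of log2 CPM within groups was 1.94 for Jchain and 1.57 for Slpi, and 99.9% and 99.3% of all genes tested had a smaller one. It was 0.88 for Sdc1, 0.75 for Derl3, 0.66 for Prdm1 and 0.64 for Mzb1. It was 0.49 for Ell2, 0.44 for Fkbp11, 0.33 for Xbp1 and 0.26 for Irf4, and the median over all genes was 0.39. The 2 regulators Irf4 and Xbp1 thus lay below the median, and the secreted products Jchain and Slpi near the top of all genes. Per kilobase of merged exons, which allows levels of different genes to be set beside each other, the mean over 12 libraries was 129 RPKM for Mzb1, 79.1 for Jchain, 49.2 for Irf4 and 33.7 for Xbp1. It was 6.42 RPKM for Derl3, 5.24 for Ell2, 3.53 for Sdc1, 2.21 for Slpi, 1.26 for Fkbp11 and 1.21 for Prdm1.

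**Figure D3:**
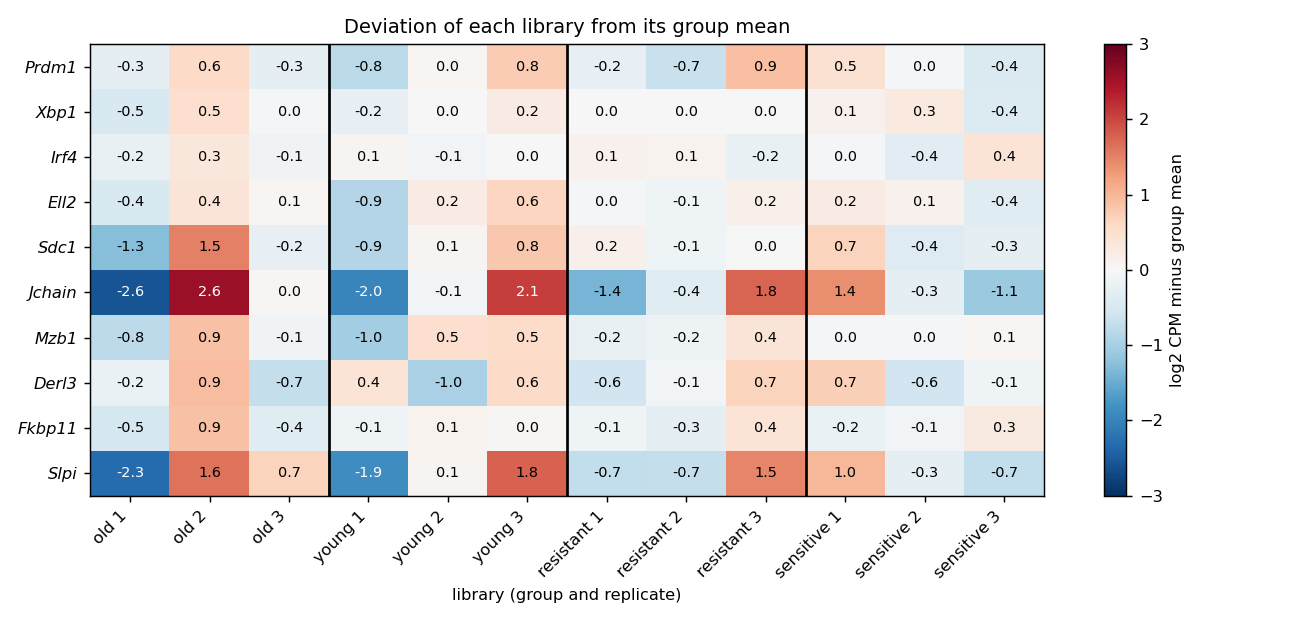
Deviation of each library from its group's mean of log2 CPM, for each gene, with red above and blue below the mean and the values rounded to 1 decimal. Jchain, Slpi, Sdc1, Mzb1, Ell2 and Prdm1 are mostly red in old replicate 2, young replicate 3, apoptosis-resistant replicate 3 and apoptosis-sensitive replicate 1, while Irf4 stays near 0 in most libraries.

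These deviations went together for most members. Jchain and Slpi had a Pearson correlation of 0.97 over the 12 deviations from group means, and 0.98 without old replicate 2. The correlation with Jchain was 0.87 for Sdc1, 0.85 for Prdm1, Ell2 and Mzb1, 0.79 for Xbp1, 0.63 for Fkbp11 and 0.57 for Derl3, but 0.06 for Irf4. Of the 45 pairs of members, 28 (62.2%) had a correlation above 0.5, against 23.0% of all pairs of genes tested, and the medians were 0.63 and 0. Without old replicate 2, 20 of the 45 pairs (44.4%) were above 0.5, against 23.7% of all pairs, with a median of 0.46 for the members. The correlation with Jchain was then 0.81 for Sdc1, 0.83 for Prdm1, 0.84 for Ell2, 0.77 for Mzb1, 0.66 for Xbp1, 0.33 for Fkbp11, 0.38 for Derl3 and -0.37 for Irf4. Libraries also differed in markers of other marrow cells. Neutrophil markers summed to 462 CPM in old replicate 3, 554 in young replicate 3 and 499 in apoptosis-sensitive replicate 1, against 19 to 135 CPM in the other 9 libraries. Erythroid markers summed to 151, 242 and 193 CPM in those 3 libraries, against 19.6 to 115 CPM in the others. Their part in the correlations was not tested. The points share collection dates and library totals, and these correlations describe the 12 libraries only.

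Over the levels in all 12 libraries, the genes most like Jchain among the 11003 compared were Slpi (Pearson correlation 0.96), Sec24d (0.95), which encodes a coat protein of vesicles that leave the endoplasmic reticulum, and Ly6c2 (0.92), a surface antigen gene. Those most like Slpi were Jchain (0.96), Sec24d (0.95) and Ext1 (0.95), an enzyme of heparan sulphate synthesis. Those most like Prdm1 were Fam135a (0.97), Sh3bgrl2 (0.96) and Anxa2 (0.94). Sec24d had 10.4, 32.3 and 15.9 CPM in old and 6.08, 10.5 and 16.0 CPM in young libraries, and 6.62, 8.73 and 11.5 CPM in apoptosis-resistant and 16.5, 12.5 and 10.8 CPM in apoptosis-sensitive libraries. Its highest library was the one that was highest for Jchain.

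Because Jchain, Slpi and Derl3 were the members with an ACGTG match, the 250 bases before their annotated starts are shown, from RefSeq on GRCm38.p6, 5′ to 3′ on the gene's strand. ACGTG lies within the unfolded protein response element that XBP1 binds. Matches to ACGTG on either strand (CACGT on the opposite one) are in capitals, and where both read CACGTG they overlap as 1 palindrome. Jchain lies at chr5:88527898-88528147 (minus strand), Derl3 at chr10:75893148-75893397 (plus strand) and Slpi at chr2:164356508-164356757 (minus strand).
Jchain: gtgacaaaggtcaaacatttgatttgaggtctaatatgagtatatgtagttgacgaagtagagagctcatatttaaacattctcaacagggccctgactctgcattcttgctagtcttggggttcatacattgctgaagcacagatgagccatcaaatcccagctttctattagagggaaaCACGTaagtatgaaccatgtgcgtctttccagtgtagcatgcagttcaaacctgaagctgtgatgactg
Derl3: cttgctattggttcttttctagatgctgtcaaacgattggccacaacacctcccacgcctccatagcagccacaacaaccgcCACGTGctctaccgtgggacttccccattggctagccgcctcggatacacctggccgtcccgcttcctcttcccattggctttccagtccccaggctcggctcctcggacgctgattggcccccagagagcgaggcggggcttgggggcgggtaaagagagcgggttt
Slpi: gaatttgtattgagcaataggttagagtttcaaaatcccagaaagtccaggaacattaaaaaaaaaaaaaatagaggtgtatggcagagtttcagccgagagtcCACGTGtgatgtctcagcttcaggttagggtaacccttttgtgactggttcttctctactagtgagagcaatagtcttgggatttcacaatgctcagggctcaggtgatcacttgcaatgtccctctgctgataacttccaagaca
The 9 members searched had 10 such windows, since Fkbp11 has more than 1 start. ACGTG was in 3 of the 10, against 16.6% of 32851 promoter windows of the same length. The CCAAT box, searched on both strands, was in 5 of the 10, against 33.8% of all windows. A match of these letters is a description of the window and not evidence of binding.

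Other genes of the plasma cell programme were examined as lists, chosen with earlier results of these data known. Of 6 further surface genes of plasma cells, 0 passed with age in edgeR, 2 had an unadjusted p under 0.05 and DESeq2 called 1 as higher. Of all genes, 11.6% had such an unadjusted p and DESeq2 called 4.82%. Above 0 were 4 of the 6, where 45.7% of all genes were, and Slamf7 was lower (log2 fold change -0.19 ± 0.20). The smallest p was that of Cd9, a tetraspanin gene, with 13.1, 21.3 and 17.8 CPM in old, against 3.12, 6.42 and 11.9 CPM in young cells (log2 fold change 1.28 ± 0.38, edgeR adjusted p = 0.135). Tnfrsf17, the gene of the plasma cell survival receptor BCMA, had 2, 22 and 9 reads in old libraries and 0, 9 and 10 in young ones, and 0, 1 and 4 in apoptosis-resistant and 11, 4 and 5 in apoptosis-sensitive libraries. Of 5 further regulators 0 passed, 1 had an unadjusted p under 0.05 and DESeq2 called 0. That gene was Tent5c, a poly(A) polymerase gene that stabilises immunoglobulin RNA, with 7.63, 33.7 and 16.9 CPM in old, against 3.86, 2.48 and 12.7 CPM in young cells (log2 fold change 1.61 ± 0.71, edgeR adjusted p = 0.407). Above 0 were 3 of these 5 regulators, and Pou2af1 was lower (log2 fold change -0.34 ± 0.21).

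The broader machinery of the endoplasmic reticulum was examined as 32 genes. Of these, 0 passed with age in edgeR and 1 had an unadjusted p under 0.05, where 11.6% of all genes did. DESeq2 called 1 of the 32 as higher, where it called 4.82% of all genes. Their median log2 fold change was 0.09, against -0.03 over all genes tested, and 22 of 32 were above 0, as were 45.7% of all genes. The smallest p was that of Txndc5, a disulphide isomerase gene, with 595, 727 and 483 CPM in old, against 383, 363 and 378 CPM in young cells (log2 fold change 0.68 ± 0.19, edgeR adjusted p = 0.112). All 3 old libraries were above all 3 young ones. Of 12 genes of the B cell programme that Blimp-1 and its targets turn down, 0 passed with age in edgeR. At an unadjusted p under 0.05 there were 3, against 11.6% of all genes. DESeq2 called 2 as lower, where it called 4.82% of all genes. The median log2 fold change was -0.35, against -0.03 over all genes, and 3 of 12 were above 0. Bcl6, a repressor of plasma cell fate, had 57.2, 62.8 and 81.2 CPM in old, against 95, 139.7 and 149 CPM in young cells (log2 fold change -0.93 ± 0.27, edgeR adjusted p = 0.13). Pax5, the B cell identity factor, was at 234 ± 55.9 CPM in old and 278 ± 64.5 CPM in young cells (SD, n = 3 each). Higher by mean in old cells were Ciita (893 against 799 CPM), Cd22 (2372 against 2268 CPM) and Irf8 (491 against 476 CPM). In apoptosis-resistant against apoptosis-sensitive cells edgeR and DESeq2 called 0 genes of these 4 lists, and those with an unadjusted p under 0.05 numbered 0 of 6 surface, 2 of 5 regulator, 1 of 32 endoplasmic reticulum and 1 of 12 B cell programme genes, where 4.9% of all genes tested were. The 2 regulators were Pou2af1 and Bhlha15, with log2 fold changes of -0.52 ± 0.21 and -1.17 ± 0.52.

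Immunoglobulin constant regions, the product that this programme exports, were set beside Jchain. Of 9 constant region genes 1, Igha of IgA, rose with age in edgeR (log2 fold change 5.93 ± 1.28, adjusted p = 0.0385). In edgeR 5 of the 9 had an unadjusted p under 0.05, where 11.6% of all genes did. DESeq2 called 4 as higher, where it called 4.82% of all genes. The median log2 fold change of the 9 was 2.84, and 7 of them were above 0. Igha had 128, 4269 and 482 CPM in old, against 6.82, 36.3 and 36.5 CPM in young libraries, and 99.3, 59.5 and 211 CPM in apoptosis-resistant, against 185, 70.8 and 47.2 CPM in apoptosis-sensitive libraries. Its highest library, old replicate 2, was also the highest for Jchain, but young replicate 3, where Jchain was above 2 of the 3 old libraries, had the Igha level of young replicate 2. Ighm of IgM had 3310.3, 9010.4 and 7915 CPM in old and 5152, 7563 and 9536 CPM in young libraries. In each of the 4 groups the library highest for Ighm was also the highest for Jchain. Ighg2b had 80.3, 497 and 230.2 CPM in old, against 3.12, 25.9 and 49.1 CPM in young libraries (edgeR adjusted p = 0.146). Between apoptosis-resistant and apoptosis-sensitive cells edgeR called 0 of the 9, and 2 had an unadjusted p under 0.05, where 4.9% of all genes did. The smallest p there was that of Ighg1, with 126, 57.6 and 196 CPM against 31.9, 9.23 and 9.59 CPM (log2 fold change 2.91 ± 0.84, edgeR adjusted p = 0.421).

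**Figure D4:**
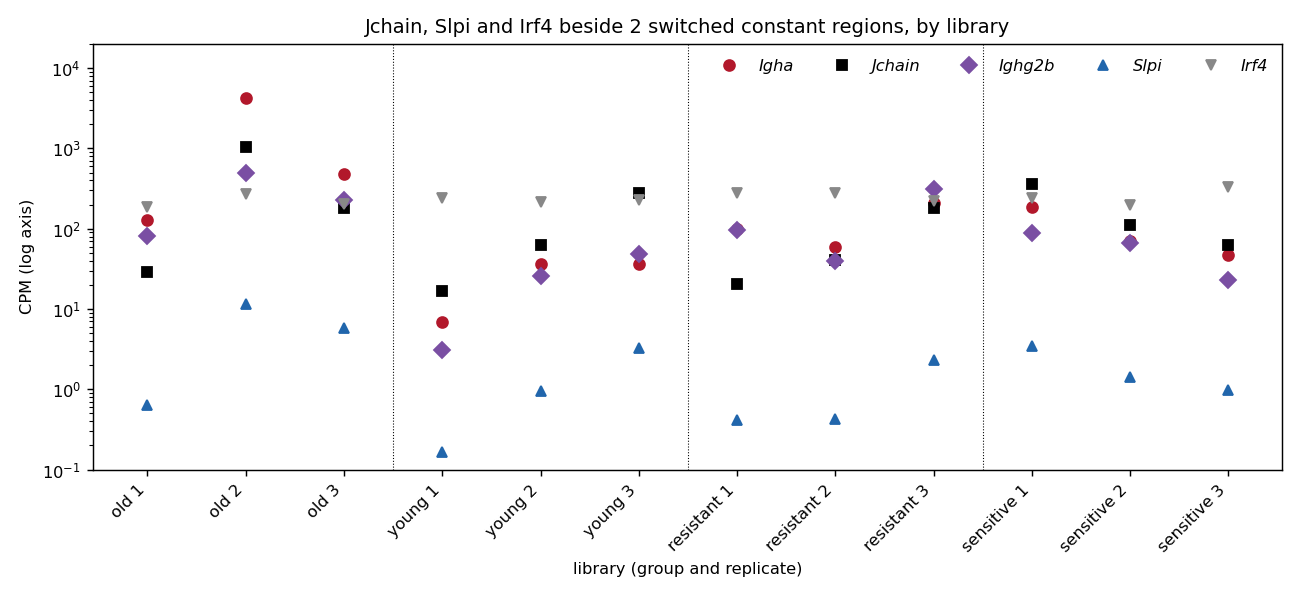
Levels in CPM (log axis) of Jchain, Slpi and Irf4 and of the constant regions Igha and Ighg2b in each of the 12 libraries, 1 marker per gene and library, with dotted lines between groups. Jchain, Slpi, Igha and Ighg2b are all highest in old replicate 2, while Irf4 stays between 187 and 332 CPM throughout.

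Markers of other cells moved with age beside these values. Summed over each list, natural killer cell markers were at 6.31 to 13.8 CPM in old and 0.986 to 4.35 CPM in young libraries, and Ncr1, 1 of the 4, rose in edgeR (log2 fold change 4.27, adjusted p = 0.0318). Stromal markers were at 17.4 to 139.9 CPM in old and 2.22 to 12.3 CPM in young libraries, and Cxcl12, 1 of the 5, rose. Monocyte and macrophage markers were at 52.6 to 196 CPM in old and 21.2 to 131 CPM in young libraries, and Adgre1, 1 of the 6, rose. T cell markers were at 38.4 to 75.1 CPM in old and 35.8 to 71.7 CPM in young libraries, and Cd3g, 1 of the 6, rose. Most of this sum was the kinase gene Lck, at 60.1, 26.3 and 35.2 CPM in old and 70.6, 34.9 and 34.3 CPM in young libraries. The other 5 T cell markers (Cd3e, Cd3d, Cd3g, Cd4 and Cd8a), set apart after their values were seen, summed to 15, 12.2 and 15.5 CPM in old and 1.15, 0.899 and 2.11 CPM in young libraries, with no overlap. Plasmacytoid dendritic cell markers were at 36.6 to 47.9 CPM in old and 23.9 to 32.4 CPM in young libraries, and Ccr9, 1 of the 3 tested, rose. Most of this sum was Pacsin1, at 29, 36 and 40.4 CPM in old and 21, 29.2 and 21 CPM in young libraries. Siglech, the remaining gene tested, overlapped, with 0.881, 1.94 and 2.31 CPM in old and 0.986, 0.942 and 3.36 CPM in young libraries (log2 fold change -0.04 ± 0.81). Immature B cell markers were at 10.2 to 16.5 CPM in old and 34.0 to 62.8 CPM in young libraries, and Cd93, 1 of the 6, fell. More of these genes had an unadjusted p under 0.05 in edgeR, where 11.6% of all genes did. They were 4 of 4 natural killer cell, 5 of 5 stromal and 3 of 6 monocyte and macrophage markers. Likewise they were 5 of 6 T cell, 2 of 3 plasmacytoid dendritic cell and 4 of 6 immature B cell markers. In that order, DESeq2 called 2, 5, 2, 4 and 1 as higher and 3 immature B cell markers as lower. For 7 neutrophil and 5 erythroid markers both counts were 0.

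In old replicate 2, where 7 members were highest, T cell markers summed to 38.4 CPM, or 12.2 CPM without Lck, and natural killer cell markers to 12.5 CPM. Monocyte and macrophage markers summed to 112 CPM there, stromal markers to 81.6 CPM and immature B cell markers to 10.2 CPM, with Rag2 and Vpreb1 at 0. Each of the first 4 sums was below the highest of the old group. The highest monocyte and macrophage sum, 196 CPM in old replicate 3, was mostly Lyz2 at 132 CPM. Adgre1 of that list was highest of the 12 libraries in old replicate 2, at 51.7 CPM, against 25.7 and 27.4 CPM in the other old libraries. Prf1 was also highest there, at 8.65 CPM. Csf1r, Lyz2, Cd68, C1qa and C1qb were highest in old replicate 3, and Ncr1, Klrb1c and Nkg7 were highest in other old libraries. Immunoglobulin genes took 2.58% of the counts in old replicate 2, the highest share of the 12 libraries, against 0.907% in old replicate 1, the lowest. In young libraries Cd3e, Col1a1, Lepr, Kitl, Klk1 and Klrb1c were at 0 in replicate 1, Cd3d in replicate 2 and Ncr1 in replicate 3. The part of other cells in the members' values was not tested.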

How the data were processed

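Per the labels, extraction used a Qiagen kit and library preparation the Illumina TruSeq RNA v2 protocol. The authors deposited whole-number read counts per gene in 1 table. Subread and featureCounts with build mm10 are named in the submitters' processing notes, and their versions, the annotation and the strand setting are not given in the sources used here. All sample columns were used (0 left out). Of 27179 Entrez gene numbers, 25275 matched a RefSeq symbol. The series calls the 3 libraries of a group biological replicates.

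A single fit by group of all 12 libraries used edgeR 4.0.16 (R 4.3.3): TMM scaling, filterByExpr with a minimum of 10 reads, a robust quasi-likelihood test with 8 residual degrees of freedom, and Benjamini-Hochberg adjustment over 13592 genes with a threshold of 0.05. CPM are counts scaled by library size and TMM factor, and RPKM divide these by the kilobases of merged GENCODE exons. Errors are SD over 3 libraries or SE of the fit, and intervals are 95%. Correlations used log2 CPM with a prior count of 2, over genes with a symbol and a mean of at least 1 CPM for the nearest patterns.

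Same-numbered libraries share a collection date in the labels, so the numbers pair the samples. Deviations of same-date libraries from their group means correlated at 0.74, 0.51 and 0.55 in wild type and 0.28, 0.32 and 0.49 in Bak1-deficient cells. Alternatives were DESeq2 1.42.0, RLE scaling, no filter, immunoglobulin genes left out, the 24 March libraries left out, the compared groups alone, the date as a block and each library left out. On simulated counts for 13395 genes, the age comparison called 19% of genes changed by a log2 fold of 1 and 93% of those changed by 2. The changed genes were drawn above a minimum mean level, which Slpi and Fkbp11, at means of 2.61 and 3.42 CPM, did not reach. Collection dates were not simulated. Jchain and Slpi vary within groups more than 99.9% and 99.3% of all genes, so these shares do not hold for them.

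All 10 members are named. Of other lists, up to 4 genes with the smallest p could be named where any passed. Cd9, Tent5c, Txndc5, Bcl6, Pax5, Tnfrsf17 and Sec24d were named with their values known. So were Slamf7, Pou2af1, Ciita, Cd22, Irf8, Ighm and Ighg1, and the single marker genes set beside the sums. The members and lists were chosen with earlier results of these data known. Mzb1's promoter is not used here. Of the B cell marker list, 1 gene and the list's sum are not reported here.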

Additional observations from a re-analysis of the deposited data

How the results depend on the processing

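The count of 0 members called held under RLE scaling, no low-count filter, without immunoglobulin genes, without the 24 March libraries and with the compared groups alone, in all the comparisons where each was run. It also held in every edgeR fit that left out 1 library, where it was 0 to 0 in all 5 comparisons while the genes called with age ran from 75 to 267. With age it was 1 of 10 under DESeq2 (Prdm1, adjusted p = 0.0319, with 735 genes called in all) and 1 of 10 with the collection date as a replicate block (Ell2, 0.79, adjusted p = 0.0487, with 2028 genes called). The compared groups alone gave 1 gene in all with age. Between apoptosis-resistant and apoptosis-sensitive cells DESeq2 called 127 genes, the date block 463 and the leave-one-out fits 0 to 13, against 6. The block could not be fitted for Bak1-deficient against young cells, which share no date, and it changed no other call of a member. The cause of these changes was not tested.

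Some log2 fold changes near 0 changed sign. Without the 24 March libraries, Irf4 was 0.10 and Fkbp11 0.05 with age, Ell2 was -0.06 and Slpi -0.08 in apoptosis-sensitive against young cells, Ell2 was -0.20 in apoptosis-resistant against young cells, and Irf4 was 0.10 for the age effect minus the Bax effect. Irf4 was -0.01 between apoptosis-resistant and apoptosis-sensitive cells without immunoglobulin genes. Sdc1 was -0.23 for the age effect minus the Bax effect with the replicate block. Leaving out 1 library at a time gave, with age, -0.13 to 0.36 for Xbp1, -0.22 to 0.05 for Irf4, -0.60 to 1.0 for Sdc1, -0.20 to 3.39 for Jchain, -0.13 to 0.72 for Mzb1 and -0.75 to 0.11 for Fkbp11. Between apoptosis-resistant and apoptosis-sensitive cells it gave -0.15 to 0.18 for Xbp1, -0.15 to 0.24 for Irf4 and -0.27 to 0.58 for Derl3. For apoptosis-sensitive against young cells it gave -0.04 to 0.32 for Irf4, -0.06 to 0.59 for Ell2, -0.04 to 0.85 for Sdc1, -0.46 to 2.15 for Jchain, -0.41 to 0.32 for Derl3 and -0.30 to 1.70 for Slpi. For apoptosis-resistant against young cells it gave -0.20 to 0.46 for Ell2, -1.95 to 1.03 for Jchain, -0.24 to 0.46 for Derl3, -0.13 to 0.22 for Fkbp11 and -1.79 to 0.86 for Slpi. For the age effect minus the Bax effect it gave -0.15 to 0.33 for Xbp1, -0.30 to 0.10 for Irf4, -1.04 to 0.55 for Sdc1, -0.45 to 0.40 for Mzb1 and -0.43 to 0.41 for Fkbp11. With 3 libraries a group, Slpi and Prdm1 at low counts and Jchain at a wide spread, changes under about the intervals given are not resolved.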
